A study of Mus musculus with 6 samples.

Results

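Cxcl16 and its receptor Cxcr6 were followed in the skin of 6 mice, as 2 of the 16158 genes measured in single cells. They were taken as a named ligand and receptor pair. Cxcl16 had at least 1 UMI (a counted RNA molecule) in 3845 of 21178 cells and Cxcr6 in 6403. The labels describe 3 groups of 2 NINJA mice, whose neoantigen is inducible, aged 6 to 12 weeks: NO_AG, in which the antigen was off, AG, in which it was on, and AG_CPI, in which it was on and CPI was given. The labels leave CPI unexpanded. The skin of all groups had been treated with 4-OH-Tam, so the NO_AG mice carry the strain and that treatment too. Before sequencing, the mice had been examined for skin pathology and for P14 CD8 T cells, which bear a transgenic antigen receptor.

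CXCL16 is made as a membrane-bound chemokine with a mucin stalk, and it also acts as a scavenger receptor for oxidised lipids and phosphatidylserine. Proteases such as ADAM10 cut it from the cell surface, which turns an adhesion partner into a soluble attractant. CXCR6, a G protein-coupled receptor, is its known receptor and is carried by tissue-resident memory and effector CD8 T cells, innate-like T cells and innate lymphoid cells. In skin it is known for its part in keeping CD8 T cells in the tissue.

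In the GRCm38 (mm10) build, Cxcl16 lies on the minus strand at chr11:70453983-70459984. Its 5' end shares 552 bases with Zmynd15, which runs on the opposite strand at chr11:70459433-70466202, and all of them are exonic (552 of the 3021 exon bases of Cxcl16). Cxcr6 lies on the plus strand at chr9:123806475-123811760, within an intron of Fyco1, which runs on the minus strand at chr9:123789500-123851899, and it shares 0 exon bases with that gene. Whether reads were counted by strand is not given in the sources used here. How reads of the shared exon bases were assigned to Cxcl16 or Zmynd15 was therefore not checked. The 250 bases that end just before the RefSeq start of Cxcr6, in the RefSeq table of GRCm38.p6 promoters, at chr9:123806227-123806476 on the plus strand, are shown because the receptor is the member found across lymphocytes. Capitals mark the match to the Runx core TGTGGT, which lies on the minus strand and begins 10 bases before that RefSeq start, the base after the window. No entry of that table matched Cxcl16.
Cxcr6 promoter: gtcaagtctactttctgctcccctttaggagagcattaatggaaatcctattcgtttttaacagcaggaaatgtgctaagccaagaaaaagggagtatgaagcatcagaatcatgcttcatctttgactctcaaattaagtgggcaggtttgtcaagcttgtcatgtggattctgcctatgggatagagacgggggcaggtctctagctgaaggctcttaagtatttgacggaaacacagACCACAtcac
The letters TGTGGT, searched on both strands, occurred in 14.05% of 32851 promoters of that table. The T-box half-site GGTGTGA and the RBPJ core GTGGGAA had 0 matches in this window and occurred in 3.33% and 5.42% of promoters. These matches describe the sequence and were not tied to expression.

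NO_AG libraries counted 4972 and 4095 cells, AG libraries 3503 and 4664, and AG_CPI libraries 1736 and 2208, with 5903724 to 24656382 UMIs each. After filters, 20466 cells remained. Levels are given as UMIs of a gene per 10000 UMIs of a cell, as a mean per class and mouse, and mice are named by group and number (NO_AG 1, NO_AG 2 and so on). Nothing in the labels gives sex, batch or date. AG_CPI 1 stood apart: among its cells outside the T cells, 16.0% had a UMI of the Y-linked gene Ddx3y and 2.78% a UMI of Xist, against 0% and 67.0% to 84.9% in the other 5 mice. Library pairs shared 5 to 35 cell barcodes, at most 0.856% of the smaller library.

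Cell classes were rebuilt from clusters and markers, so the names end in -like or rest on gate genes, and shares can differ from those of another naming. The defining markers were present. C1qa in monocyte/macrophage-like cells was 28.8 to 54.5, Krt14 in keratinocyte-like cells 78.4 to 118.7, Cd3e in CD8 T cells 11.95 to 18.2, and Foxp3 in regulatory T cells 7.07 to 10.1. Langerhans cells were dendritic/Langerhans-like cells with a UMI of Cd207, the gene of langerin. CD8 T cells had Cd8a or Cd8b1 UMIs but no UMI of Cd4 or Trdc. Keratinocyte-like cells held some T cell RNA, with Trac at 0.013 and 0.019 in NO_AG mice, 0.045 and 0.279 in AG mice, and 0.094 and 0.547 in AG_CPI mice.

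The ligand was a gene of myeloid cells and, at a lower level, of keratinocytes. Averaged over the groups that had enough cells, Cxcl16 was 11.4 in dendritic cells without a Cd207 UMI, 9.14 in monocyte/macrophage-like cells, 4.56 in Langerhans cells and 0.62 in keratinocyte-like cells. These averages cover different mice. The first rests on the 2 AG mice alone, and in both of them the macrophages lay higher (log2 difference -0.22 for the other dendritic cells minus macrophages), while the macrophage average includes the low NO_AG mice. Every lymphocyte class lay at or below 0.07 in each mouse. Of 14 comparisons between neighbours in this order, none passed an exact sign-flip permutation test over mice after Benjamini-Hochberg adjustment. Monocyte/macrophage-like cells exceeded Langerhans cells in 4 of 4 mice with both, and Langerhans cells exceeded keratinocyte-like cells in 4 of 4, each at an exact p of 0.125 (adjusted p = 0.875), the smallest p that 4 mice allow.

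The receptor was a gene of T cells and innate lymphocytes. In the same averages Cxcr6 was 10.2 in CD8 T cells, 8.42 in type 17 T cells (receptor-bearing cells with UMIs of genes such as Il17a or Il23r), 7.32 in ILC2-like cells, 6.23 in CD4 T cells without a Foxp3 UMI, 5.10 in Trdv4 T cells (the segment of dendritic epidermal T cells), 2.25 in NK or innate-like lymphocytes and 0.63 in regulatory T cells. These averages cover different mice: type 17 T and ILC2-like cells had no AG_CPI mouse with enough cells, while the CD8 T average includes AG_CPI at 12.7. By group, CD8 T cells held 9.21 in NO_AG and 8.76 in AG, and type 17 T cells 7.68 and 9.17. Monocyte/macrophage-like cells held 0 to 0.09. Of 13 neighbouring pairs none passed the adjusted exact test. NK or innate-like cells exceeded regulatory T cells in 6 of 6 mice (exact p = 0.03125, the smallest possible, adjusted p = 0.406), and Trdv4 T cells exceeded NK or innate-like cells in 5 of 5 (exact p = 0.0625, adjusted p = 0.406). The ranges over mice of each neighbouring pair among the first 5 classes overlapped, while every CD8 T value lay above every Trdv4 T value.

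**Figure D1:**
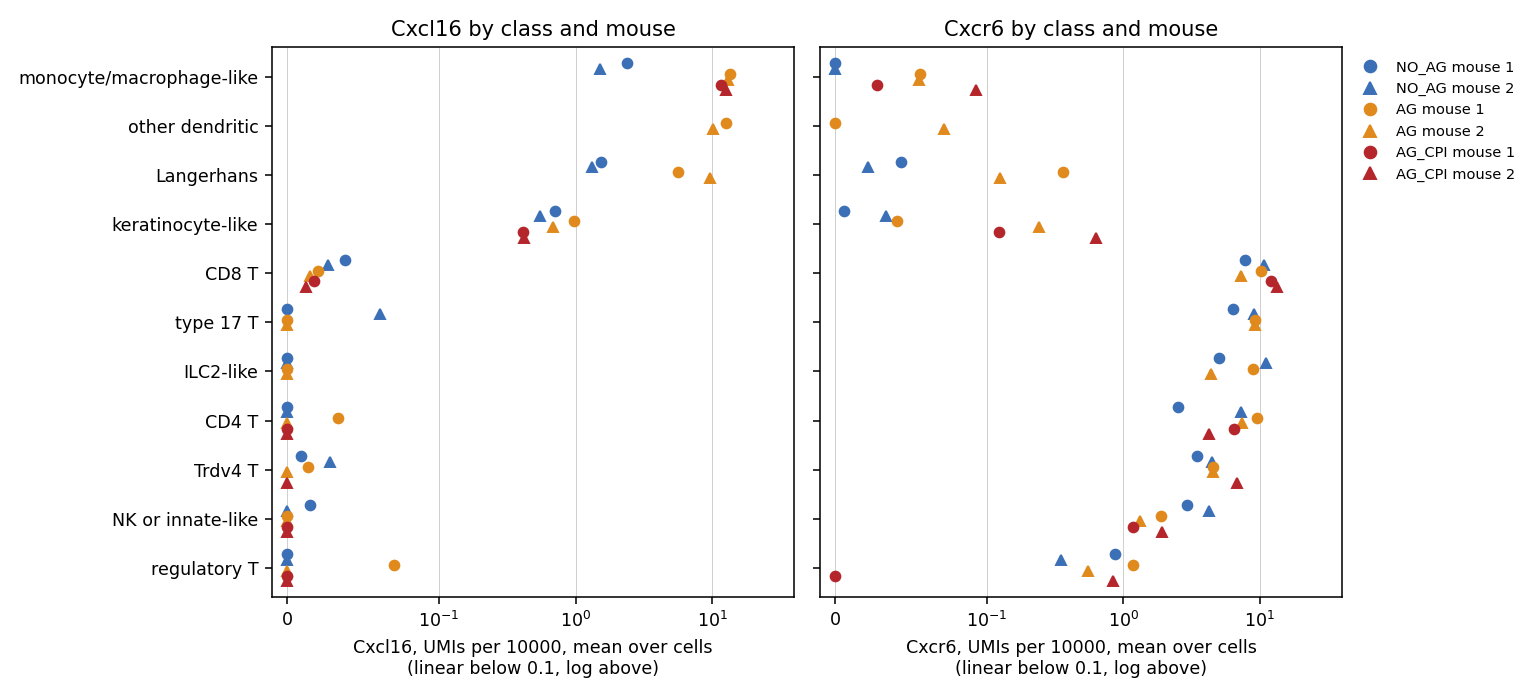
Mean Cxcl16 and Cxcr6 (UMIs per 10000) in each cell class, 1 point per mouse with at least 10 cells of the class, coloured by group, on an axis that is linear below 0.1 and logarithmic above. Cxcl16 sits in myeloid classes and keratinocytes, with NO_AG macrophages at 1.52 and 2.40 against 11.7 to 13.5 in the other groups, and Cxcr6 sits in lymphocytes.

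Cxcl16 rose in macrophages when antigen was on. Monocyte/macrophage-like cells held Cxcl16 at 2.40 and 1.52 in NO_AG mice, 13.5 and 13.02 in AG mice, and 11.7 and 12.7 in AG_CPI mice. All 4 antigen-exposed mice lay far above both NO_AG mice, and they lay close to each other. The difference of AG from NO_AG was 2.87 on the log2 scale (SE 0.22, limma adjusted p = 0.0016), where 28.6% of 1031 genes passed and the median of all genes was 0.28. AG_CPI exceeded the same NO_AG mice by 2.80 (adjusted p = 0.0011, 31.3% of genes passed), and by 2.88 without AG_CPI 1. Between AG_CPI and AG the difference was -0.06 (95% interval -0.59 to 0.46, adjusted p = 0.998), with 0% of genes called by limma and 38 of 1031 at an unadjusted p under 0.05.

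The NO_AG values rest on 19 and 15 cells, against 136 to 518 per mouse in the other groups. The share of these cells with a Cxcl16 UMI was 31.6% and 20% in NO_AG and 91.9% to 95.8% in the other mice. After thinning every cell to 1500 UMIs the shares were 21.1% and 13.3% against 79.4% to 82.8%. CD8 T cells, taken as a class without the ligand, had shares of 0.417% to 1.03%, at median depths of 2119 to 2686 UMIs against 2069 to 6605 in the macrophages. The sampled macrophages of the groups also came from different sub-clusters. Of the NO_AG cells, 17 and 13 fell in sub-cluster 9, led by Ccl8, Retnla and Folr2, while at most 2 cells per NO_AG mouse fell in any other macrophage sub-cluster.

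Sub-cluster 9 held little Cxcl16 in every group. Its mean was 2.03 and 0.45 in NO_AG, 0.93 and 0.77 in AG (12 and 14 cells), and 1.10 in AG_CPI 2 (8 cells), while AG_CPI 1 had 0 UMIs in 3 cells. The groups overlapped there. Sub-clusters 1 to 5, led by genes such as Ms4a7, Ccl5, Acp5 or Nos2, held 11.2 to 15.4 in every AG and AG_CPI mouse. Sub-cluster 8, with Mmp13 and Ccl24 among its leading genes, held 11.2 in AG 2, where it had 90 cells. Folr2, a receptor of resident tissue macrophages, was 9.69 and 17.2 in the class in NO_AG and 0.38 to 1.62 in the other mice. A change of level within one kind of macrophage and a change in which macrophages were present cannot be told apart for the class as a whole.

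**Figure D2:**
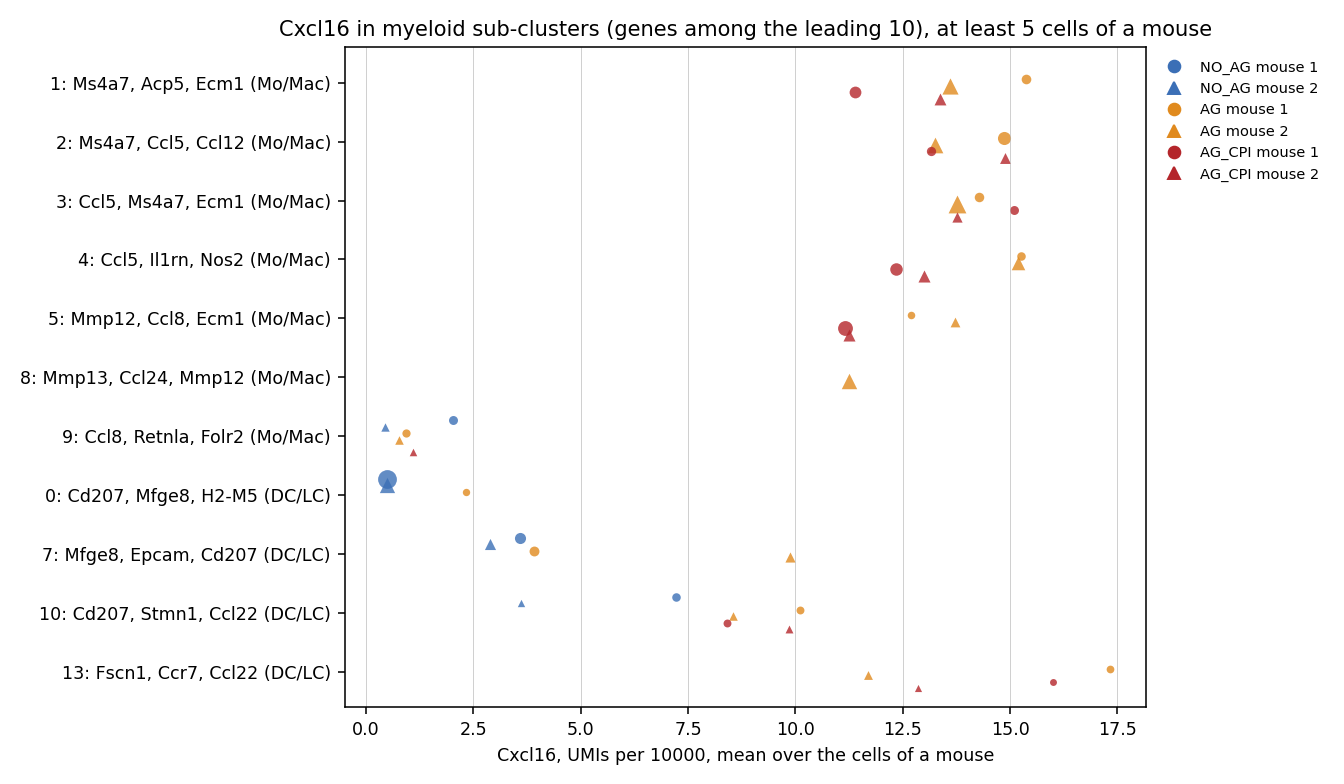
Mean Cxcl16 (UMIs per 10000) in each myeloid sub-cluster, labelled with 3 of its leading genes and its class (Mo/Mac, monocyte/macrophage-like; DC/LC, dendritic/Langerhans-like), 1 point per mouse with at least 5 cells and point size by number of cells. Sub-cluster 9 lies at 0.45 to 2.03 in all mice shown, and the macrophage sub-clusters of AG and AG_CPI mice lie near 11 to 15.

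Most macrophages carried a UMI of complement gene C1q: 31 of 34 cells in NO_AG, 560 of 654 in AG and 401 of 419 in AG_CPI. In the 2 mice with at least 10 cells of each kind, Cxcl16 with and without such a UMI was 12.95 and 13.4 (AG 2) and 11.6 and 12.8 (AG_CPI 1). The exact sign-flip p was 0.5, the smallest that 2 mice allow. A fit of the C1q cells alone nearly repeats that of the class. Cells with a C1q UMI exceeded NO_AG by 2.87 in AG (adjusted p = 0.00059) and by 2.77 in AG_CPI. Zmynd15, the gene that overlaps Cxcl16, was 0.25 and 0.32 in NO_AG mice, 5.40 and 1.53 in AG mice, and 2.53 and 2.71 in AG_CPI mice in the same class. It was higher in AG by 3.07 (adjusted p = 0.012). How far reads of one gene entered the other was not tested. In keratinocyte-like cells, where Cxcl16 was 0.41 to 0.97, Zmynd15 was 0.01 to 0.10.

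Langerhans cells, the antigen-presenting cells of the epidermis, also carried more ligand. Cxcl16 was 1.55 and 1.32 in NO_AG and 5.67 and 9.73 in AG, with 197 and 128 cells against 38 and 36. Both AG mice lay above both NO_AG mice, by 2.29 on the log2 scale (SE 0.27, adjusted p = 0.0041), where 4.06% of 5216 genes passed and the median of all genes was -0.11. With 6 and 7 such cells, AG_CPI was not tested. Of the NO_AG cells of the dendritic/Langerhans-like class, most lay in sub-cluster 0 (151 and 87 cells), led by Cd207 and Mfge8, with Cxcl16 at 0.49 and 0.50, and that sub-cluster had 7 and 1 cells in AG.

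Within sub-cluster 7, a Langerhans population present in both groups with 24 to 35 cells per mouse, Cxcl16 was 3.59 and 2.89 in NO_AG and 3.92 and 9.88 in AG. AG 1 lay just above the NO_AG mice and AG 2 well above them. The difference was 0.98 (95% interval 0.32 to 1.65, adjusted p = 0.098), where 3.13% of 2811 genes passed. Without AG 1, which left AG 2 alone in its group, it was 1.67. Sub-cluster 13, led by Fscn1, Ccr7 and Ccl22, genes of mature dendritic cells, held 8.67 to 17.3 in all mice, on 2 to 16 cells each. Sub-cluster 10, led by Cd207, cell-cycle genes, and Xcr1 and Wdfy4, genes of conventional type 1 dendritic cells, held 7.23 and 3.61 in NO_AG and 8.40 to 10.1 in the other mice. It gave 13 and 5 of the Langerhans cells in NO_AG and 7 and 5 in AG. Without it Cxcl16 was 1.15 and 1.24 in NO_AG and 4.38 and 10.1 in AG, a difference of 2.34 (adjusted p = 0.038), where 1.17% of 4543 genes passed.

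Over all dendritic/Langerhans-like cells, Cxcl16 was 1.64 and 1.54 in NO_AG mice, 7.35 and 9.89 in AG mice, and 10.9 and 10.99 in AG_CPI mice. The groups did not overlap. AG exceeded NO_AG by 2.25 (adjusted p = 0.0020, 7.24% of 2846 genes passed), and without AG 2 by 2.05. AG_CPI exceeded the same NO_AG mice by 2.52 (adjusted p = 6.7e-05, 28.5% of genes passed, median of all genes -0.32), and by 2.52 without AG_CPI 1. AG_CPI and AG differed by 0.28 (95% interval -0.17 to 0.72, adjusted p = 0.45), where 5.62% of genes passed. AG_CPI values rest on 15 and 16 cells. The class held different cells in each group: 325 of its 335 NO_AG cells had a Cd207 UMI, against 74 of 107 in AG and 13 of 31 in AG_CPI, and sub-clusters 0 and 7, with 238 and 70 NO_AG cells, had 0 AG_CPI cells. A change of level and a change of cells cannot be told apart for this class.

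In keratinocytes no Cxcl16 difference between groups passed. Keratinocyte-like cells held Cxcl16 at 0.71 and 0.55 in NO_AG mice, 0.97 and 0.68 in AG mice, and 0.41 and 0.42 in AG_CPI mice. The NO_AG and AG mice overlapped, and both AG_CPI mice lay below the other 4. AG and NO_AG differed by 0.39 (95% interval -0.11 to 0.89, adjusted p = 0.72), where 0.58% of 8275 genes passed. AG_CPI and AG differed by -0.82 (95% interval -1.32 to -0.32, adjusted p = 0.40), with 0% of genes called by limma and 876 at an unadjusted p under 0.05. AG_CPI and NO_AG differed by -0.43 (95% interval -0.93 to 0.07, adjusted p = 0.36), where 0.81% of genes passed. Without AG_CPI 1 the last 2 differences were -0.81 and -0.41. The makeup of the class also moved. A sub-cluster of stressed keratinocytes, led by Krt6b, Il24 and Tslp, held 613 of 1329 cells in AG 2, 3 in AG 1, 27 of 414 in AG_CPI and 0 in NO_AG, and interfollicular basal cells were 990 of 4006 in NO_AG and 24 of 414 in AG_CPI. Without the stress cells Cxcl16 was 0.98 and 0.62 in AG, and the differences were 0.34 for AG against NO_AG (adjusted p = 0.88, 0.73% of 8223 genes passed), -0.81 for AG_CPI against AG (adjusted p = 0.31, 0% passed, 964 at an unadjusted p under 0.05) and -0.47 between AG_CPI and NO_AG (adjusted p = 0.33, 1.03% passed).

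The size of the change differed between keratinocytes and myeloid cells. The keratinocyte-like change of AG from NO_AG was smaller than the macrophage-like change, with a difference of changes of -2.47 (SE 0.39, adjusted p = 0.020), where 8.22% of 912 genes passed. For AG_CPI from NO_AG the difference of changes was -3.23 (adjusted p = 0.0062, 16.6% of genes passed). Against dendritic/Langerhans-like cells it was -1.85 for AG (95% interval -2.85 to -0.86, adjusted p = 0.145), where 0.465% of 2580 genes passed, and -2.95 for AG_CPI (adjusted p = 0.0052, 19.3% of genes passed). These comparisons share the NO_AG mice, and they use classes whose cells differed between the groups.

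Among keratinocyte compartments the upper hair follicle held the most ligand in NO_AG. Cxcl16 there was 1.32 and 1.47 in NO_AG mice, 1.27 and 0.79 in AG mice, and 0.45 and 0.67 in AG_CPI mice. AG_CPI lay below both other groups. Its difference from NO_AG was -1.22 (95% interval -1.84 to -0.60, adjusted p = 0.078), where 1.12% of 6694 genes passed. It was -0.93 without AG_CPI 1 and -1.56 without AG_CPI 2. The last value rests on AG_CPI 1, the mouse that stood apart. The class held different clusters by group: cluster 45 held 41 cells, all of AG_CPI 2, while clusters 5 and 6 held cells of every mouse. AG_CPI 1 had 0 cells of cluster 45 and the lower AG_CPI value. The part of the clusters in the difference was not tested. In the interfollicular basal layer Cxcl16 was 0.63 and 0.63 in NO_AG and 1.21 and 0.71 in AG. The difference was 0.43 (95% interval -0.32 to 1.18, adjusted p = 0.52), where 0.34% of 1766 genes passed, and 0.77 without AG 2. This layer too held different clusters by group: 921 of 990 NO_AG cells lay in cluster 7, against 58 of 230 AG cells. Cluster 25 held 119 AG and 7 NO_AG cells, and cluster 40 held 53 cells, all of AG 2. Bulge and germ cells held 0.08 to 0.45 and suprabasal cells 0 to 0.57.

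RNA of macrophages in keratinocyte droplets was gauged from C1qa and Lyz2. In AG 2 the C1qa in keratinocyte-like cells, at the ratio of Cxcl16 to C1qa in that mouse's macrophages, would bring a Cxcl16 level of 0.169 (0.103 by Lyz2) against 0.68 measured. In the other 5 mice this level was at most 0.0301 by either gene. Cells without a UMI of C1q genes or Lyz2 were 78.6% of keratinocyte-like cells in AG 2 and 93.75% to 99.5% elsewhere. In keratinocyte-like cells without a UMI of C1q genes or Lyz2, Cxcl16 was 0.71 and 0.56 in NO_AG mice, 0.98 and 0.68 in AG mice, and 0.41 and 0.42 in AG_CPI mice, close to the values of the whole class. The interferon-induced chemokines Cxcl9 and Cxcl10, ligands of CXCR3, did rise in keratinocyte-like cells. Cxcl9 was 0.50 and 0.57 in NO_AG mice, 4.04 and 4.94 in AG mice, and 2.99 and 3.36 in AG_CPI mice, and AG exceeded NO_AG by 2.91 (SE 0.17, adjusted p = 0.00049). Cxcl10 was 0.31 and 0.65 in NO_AG and 2.32 and 2.83 in AG, a difference of 2.34 (adjusted p = 0.023).

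Which cells held the ligand RNA shifted with the cells that were sampled. Keratinocyte-like cells gave 71.0% and 71.8% of the summed Cxcl16 level in NO_AG mice, 29.4% and 8.91% in AG mice, and 2.31% and 3.20% in AG_CPI mice. Monocyte/macrophage-like cells gave 2.10% and 1.61%, then 51.2% and 66.6%, then 81.9% and 81.4%. Langerhans cells gave 14.1% and 11.9% in NO_AG and 1.66% to 6.02% in the other mice. These shares move with both the number of cells and the level per cell, and the number of cells recovered depends on how the skin was dissociated.

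For the receptor, CD8 T cells gave 16.4% and 42.2% of the summed level in NO_AG mice, 48.3% and 42.1% in AG mice, and 62.4% and 58.7% in AG_CPI mice. Trdv4 T cells gave 40.8% and 21.8%, then 8.11% and 7.26%, then 0.55% and 0.91%. CD8 T cells were 2.04% and 7.64% of kept cells in NO_AG mice, 21.5% and 11.3% in AG mice, and 42.1% and 36.5% in AG_CPI mice. Between 17.1% and 37.6% of the sum lay in cells outside the named classes, among them T cells that met no gate.

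**Figure D3:**
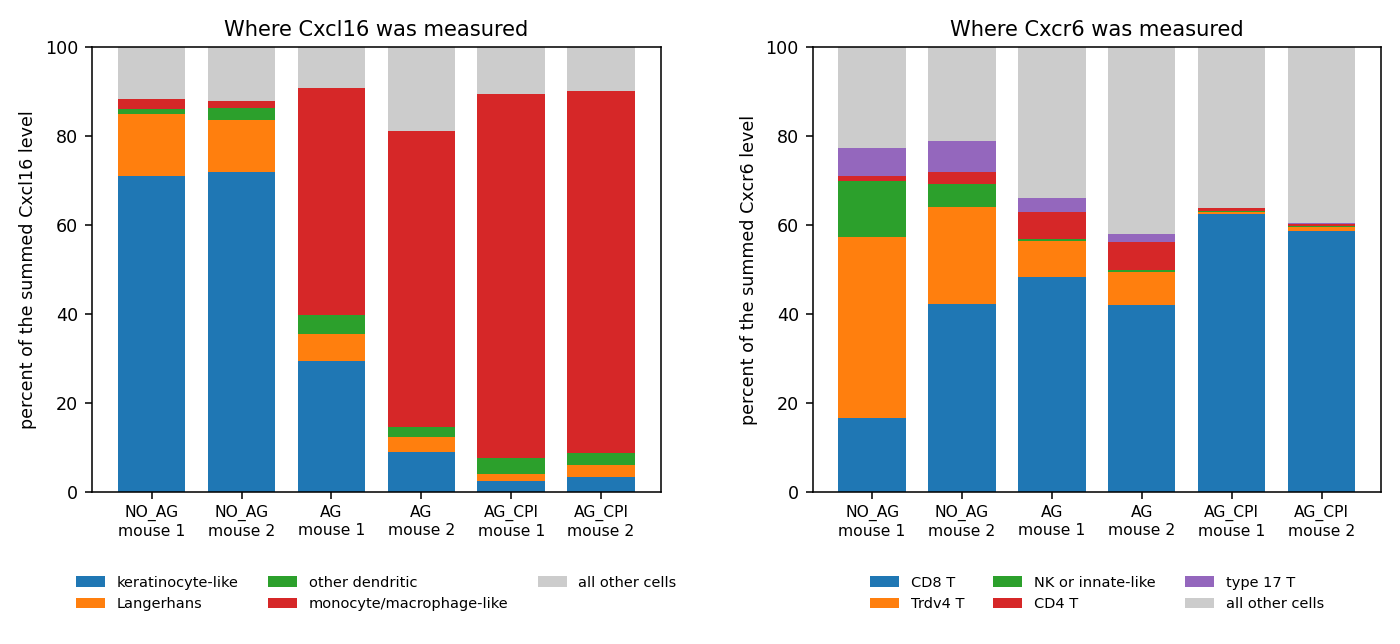
Share of the summed Cxcl16 and Cxcr6 level given by each class in each mouse, as stacked bars in percent. For Cxcl16 the largest part is keratinocyte-like in both NO_AG mice and monocyte/macrophage-like in the other 4, and for Cxcr6 the CD8 T part is 16.4% in NO_AG 1 and 42.1% to 62.4% elsewhere.

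Receptor levels in CD8 T cells did not pass the test in any comparison. Cxcr6 was 7.75 and 10.7 in NO_AG mice, 10.2 and 7.29 in AG mice, and 12.1 and 13.3 in AG_CPI mice, on 97 to 792 cells per mouse. NO_AG and AG overlapped, and both AG_CPI mice lay above the other 4. AG and NO_AG differed by 0.02 (95% interval -0.42 to 0.46, adjusted p = 0.97), where 1.58% of 4679 genes passed. AG_CPI and AG differed by 0.54 (95% interval 0.10 to 0.98, adjusted p = 0.84), where 0.0855% of genes passed, and AG_CPI and NO_AG by 0.56 (95% interval 0.12 to 1.00, adjusted p = 0.18), where 3.65% passed. Without AG_CPI 1 these 2 differences were 0.60 and 0.61. Single mice moved them: AG_CPI against AG was 0.30 without AG 2 and 0.78 without AG 1, and AG_CPI against NO_AG was 0.35 without NO_AG 1 and 0.80 without NO_AG 2, none of which passed.

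Most CD8 T cells had the receptor RNA in every mouse. The share with a Cxcr6 UMI was 68.0% and 85.4% in NO_AG mice, 84.1% and 75.7% in AG mice, and 86.4% and 88.9% in AG_CPI mice. After thinning to 1500 UMIs it was 58.8% and 72.5%, then 68.4% and 56.7%, then 77.1% and 77.5%. Keratinocyte-like cells, taken as a class without the receptor, had shares of 0.415% to 10.8% at median depths of 2720 to 6830 UMIs. The means in those cells, 0.01 and 0.03 in NO_AG mice, 0.04 and 0.24 in AG mice, and 0.12 and 0.63 in AG_CPI mice, lay in the same order over the 6 mice as those of Trac, a T cell receptor gene. Their difference between AG_CPI and NO_AG was 1.80 (95% interval 0.45 to 3.15, adjusted p = 0.19).

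CD8 T cells of the groups came from different sub-clusters. Sub-cluster 0, led by Cd8b1, Cd8a and Cd6, held 89 of 97 and 280 of 302 NO_AG cells and 33 and 45 AG_CPI cells. Cxcr6 in it was 8.37 and 11.2 in NO_AG mice, 9.59 and 5.43 in AG mice, and 6.84 and 6.45 in AG_CPI mice. There the AG_CPI mice lay below both NO_AG mice, by -0.55 (95% interval -1.08 to -0.02, adjusted p = 0.27), where 2.74% of 1459 genes passed. This direction was opposite to that of all CD8 T cells.

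The sub-clusters that filled in AG_CPI differed among themselves in receptor RNA. Sub-cluster 2, led by Gzma, Trav14-1 and Trbv13-3, had 0 NO_AG cells, and Cxcr6 there was 13.8 and 11.8 in AG and 14.1 and 16.5 in AG_CPI (282 and 283 cells). Sub-cluster 6, led by the same receptor segments with Ccl4, held 13.8 to 14.4 in the 4 antigen-exposed mice. The cycling sub-cluster 5 held 4.86 to 7.65 in those mice, less than sub-clusters 2, 3 and 6 in each of the 4. Sub-cluster 10, with Ccl1, Ifng and Pdcd1 among its leading genes, held 6.20 and 4.28 in AG and 7.69 and 9.52 in AG_CPI (29 and 43 cells). The 15 cells of NO_AG 2 there held 3.04. Sub-cluster 3, with Ccl4, Ccl3 and Plac8 among its leading genes, held 12.3 and 9.11 in AG and 12.6 and 14.02 in AG_CPI. Sub-cluster 11, with the interferon-induced genes Ifit3, Ifit1 and Mx1 among its leading genes, held 9.02 and 6.42 in AG and 14.1 and 15.2 in AG_CPI, on 13 to 35 cells per mouse. Against the 8.37 and 11.2 of NO_AG mice in sub-cluster 0, sub-cluster 5 lay below both in each of the 4 mice, and sub-cluster 10 lay between them in AG_CPI 2 and below both elsewhere. These sub-clusters were defined on the same cells, so their levels are a description.

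**Figure D4:**
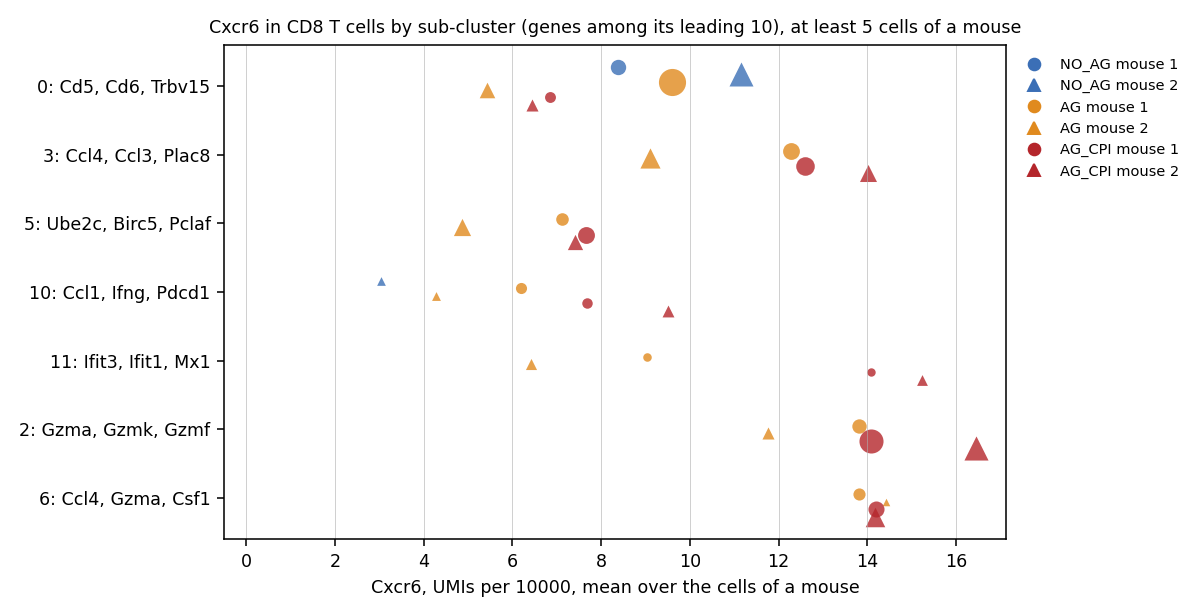
Mean Cxcr6 (UMIs per 10000) of CD8 T cells in each lymphoid sub-cluster, labelled with 3 of its leading genes, 1 point per mouse with at least 5 cells and point size by number of cells. Sub-cluster 0 holds 5.43 to 11.2 and sub-cluster 2 holds 11.8 to 16.5.

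Trbv13-3, among the leading genes of sub-clusters 2, 3, 6, 10 and 11 but not of 0 or 5, divided the CD8 T cells further. Cells with a Trbv13-3 UMI numbered 1 and 10 in NO_AG mice, 272 and 273 in AG mice, and 398 and 480 in AG_CPI mice. Their Cxcr6 was 11.7 and 7.69 in AG mice and 12.1 and 14.1 in AG_CPI mice, and the 10 cells of NO_AG 2 held 13.6. Between AG_CPI and AG this was a difference of 0.47 (95% interval -0.12 to 1.07, adjusted p = 0.38), with 0% of 532 genes called by limma and 78 at an unadjusted p under 0.05. Without AG 1 it was 0.77. CD8 T cells with another beta segment held 8.82 and 10.9 in NO_AG mice, 8.78 and 6.39 in AG mice, and 10.8 and 12.1 in AG_CPI mice. In them AG_CPI and AG differed by 0.59 (95% interval 0.19 to 0.99, adjusted p = 0.17), where 1.96% of 3732 genes passed.

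Within the same mouse, Cxcr6 was higher in Trbv13-3 cells than in cells with another segment in 4 of 4 antigen-exposed mice, by 0.29 on average (95% interval 0.03 to 0.54, limma adjusted p = 0.51). In that comparison 0% of 530 genes were called by limma and 48 had an unadjusted p under 0.05. Trbv13-3 encodes the beta segment that the P14 receptor is known to use. Other T cells can use it too and no label marks transferred cells here, so these cells are named by their segment.

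Other lymphocytes showed no difference that passed. CD4 T cells held Cxcr6 at 2.49 and 7.31 in NO_AG mice, 9.44 and 7.44 in AG mice, and 6.51 and 4.21 in AG_CPI mice. The AG mice lay above both NO_AG mice, by 0.92 (95% interval -0.13 to 1.98, adjusted p = 0.54), with 0% of 1070 genes called and 105 at an unadjusted p under 0.05. Trdv4 T cells held 3.47 and 4.43 in NO_AG and 4.57 and 4.52 in AG, a difference of 0.22 (95% interval -0.20 to 0.64, adjusted p = 0.59), with 0% of 1519 genes called and 166 at an unadjusted p under 0.05.

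Type 17 T cells held Cxcr6 at 6.30 and 9.06 in NO_AG and 9.18 and 9.17 in AG, a difference of 0.18 (95% interval -0.33 to 0.70, adjusted p = 0.90), with 0% of 1642 genes called by limma and 121 at an unadjusted p under 0.05. ILC2-like cells, named for the group 2 innate lymphoid cells that make Il13, held 5.05 and 11.001 in NO_AG and 8.85 and 4.38 in AG. They differed by -0.32 (95% interval -1.37 to 0.72, adjusted p = 0.89), with 0% of 534 genes called and 27 at an unadjusted p under 0.05. Type 17 T cells held Il13 too, at 4.57 to 13.7 per mouse against 3.18 to 16.8 in ILC2-like cells. Il13 therefore does not set these classes apart. An Il17a UMI was found in 3.39% to 28.3% of type 17 T cells per mouse, so that name rests on the gate. The change in CD8 T cells exceeded that in ILC2-like cells by 0.35 (95% interval -0.47 to 1.17, adjusted p = 0.81), with 0% of 528 genes called and 51 at an unadjusted p under 0.05. NK or innate-like lymphocytes held 2.94 and 4.26 in NO_AG mice, 1.89 and 1.33 in AG mice, and 1.18 and 1.91 in AG_CPI mice, and regulatory T cells held 0 to 1.18. Neither had enough UMIs for the filter used here. Under a lighter filter the NK or innate-like difference was -1.12 for AG against NO_AG (adjusted p = 1.00) and -1.55 between AG_CPI and NO_AG (adjusted p = 0.255), and regulatory T cells gave 0.59 and -1.05 (adjusted p = 0.99 and 0.77), with 0% of genes called by limma in each. The share of NK or innate-like cells with a UMI of Ncr1, a receptor gene of natural killer cells, was 10.8% and 6.38% in NO_AG mice, 29.2% and 41.4% in AG mice, and 70.0% and 61.5% in AG_CPI mice, and its part in the Cxcr6 level of the class was not tested.

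**Figure D5:**
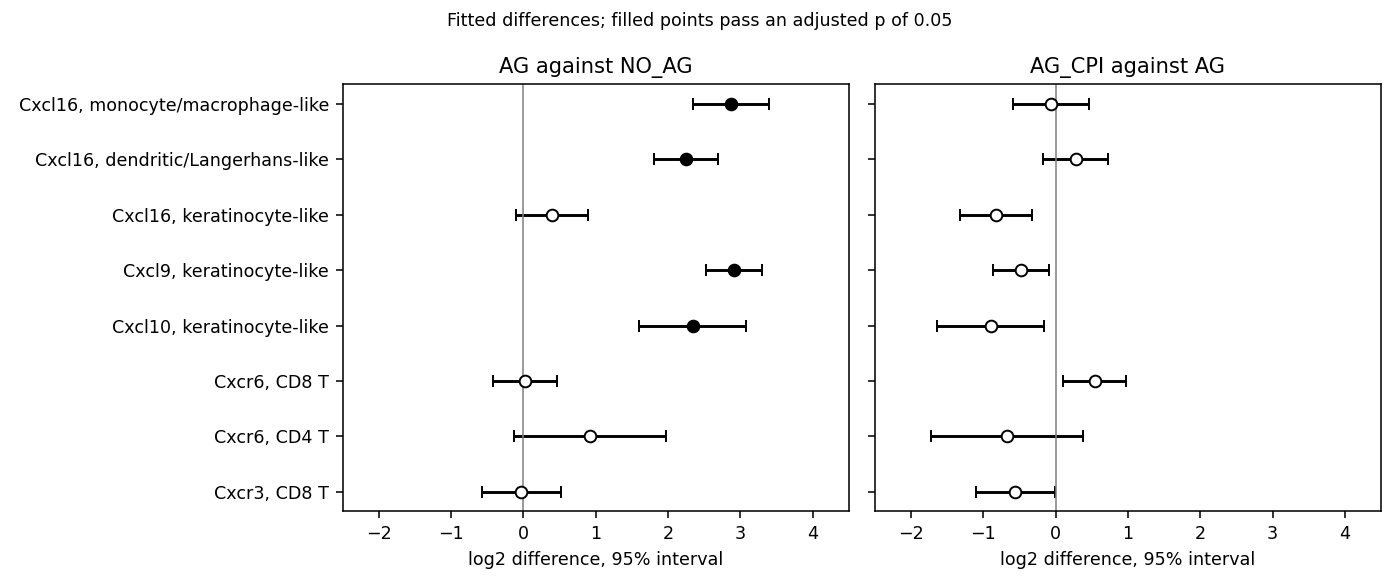
Fitted log2 differences with 95% intervals of Cxcl16, Cxcl9, Cxcl10, Cxcr6 and Cxcr3 in the classes named at the left, for AG against NO_AG and AG_CPI against AG, with filled points where the adjusted p is under 0.05. For AG against NO_AG the filled points are Cxcl16 in the myeloid classes, 2.25 and 2.87, and Cxcl9 and Cxcl10 in keratinocyte-like cells, while neither Cxcr6 point is filled.

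Genes known to accompany CXCR6 on T cells moved where the receptor did not pass. Of 17 tested members of a list of 20 checkpoint, cytotoxic and residency genes, 10 rose and 0 fell in CD8 T cells of AG against NO_AG, where 1.58% of all genes passed, with a median of 1.62 against 0.05 over all genes. Lag3, an inhibitory receptor, was 4.19 against 0.25 (log2 difference 3.71, adjusted p = 2.0e-06). Gzma, a granzyme of killer cells, was 16.5 against 2.15, and Pdcd1, which encodes PD-1, was 1.67 against 0.13. In AG_CPI against NO_AG 12 rose and 1 fell, Cd69 (-0.86, adjusted p = 0.036), where 3.65% of all genes passed, with a median of 1.47 against 0.06. In AG_CPI against AG, where 0.0855% of all genes passed, only Gzma of the 17 did, at 81.7 against 16.5 (log2 difference 2.28, adjusted p = 7.9e-05).

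These counts cover all CD8 T cells, which came from different sub-clusters and segments in each group, and subsets gave other counts. In CD8 T cells with another beta segment, 0 of 16 partner genes rose or fell in AG against NO_AG (median 0.48 against 0.03), with 0% of 3732 genes called by limma and 266 at an unadjusted p under 0.05. In the same subset 7 of 16 rose in AG_CPI against AG, where 1.96% of genes passed, among them Gzma (log2 difference 3.42), Pdcd1 (3.19) and Tigit (2.45). Cd69 and Itgae, genes of tissue residency, fell there, by -1.08 and -1.16. Between AG_CPI and NO_AG 9 rose and 2 fell, where 4.18% passed. In sub-cluster 0, which held most NO_AG cells, 0 of 8 rose or fell in AG against NO_AG (median -0.21 against -0.02), with 0% of 1459 genes called by limma and 52 at an unadjusted p under 0.05. Between AG_CPI and NO_AG 0 rose there and 1 fell, Gzmb (-2.25, adjusted p = 0.0021), where 2.74% passed, with a median of -0.62 against -0.10.

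In the same mouse, CD8 T cells with a Tcf7 UMI, a factor of memory and stem-like T cells, had less Cxcr6 than those without in 6 of 6 mice, a log2 difference of -0.47 (exact sign-flip p = 0.03125, the smallest possible, adjusted p = 0.219). Cells with a Gzmb UMI had more in 5 of 6 mice, by 0.27 (exact p = 0.0625, adjusted p = 0.219). Itgae, Lag3, Gzma, Pdcd1 and S1pr1 made up the other 5 of 7 partners tested, none of which passed. With every cell thinned to 1500 UMIs the Tcf7 difference was -0.48, and cells with a Gzmb UMI had more Cxcr6 in 4 of 6 mice, by 0.32 (exact p = 0.156).

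Of 12 tested factors reported upstream of Cxcr6 (16 listed), 0 rose or fell in CD8 T cells of AG against NO_AG, and with 1.58% of all genes passing this count does not set the list apart. In AG_CPI against NO_AG, where 3.65% passed, Bhlhe40 (1.199) and Runx2 (0.84) rose, and Tcf7 fell, at 0.23 against 1.32 (-2.02, adjusted p = 0.0011), with a list median of 0.33 against 0.06 over all genes. These counts cover all CD8 T cells, whose sub-clusters differed by group. In those with another beta segment Tox (2.05), Bhlhe40 (1.33) and Batf (1.13) were among the factors that rose in this comparison. Tcf7 fell there (-1.18), where 4.18% of genes passed. Of 5 chemokine receptors tested in all CD8 T cells, Ccr2, a receptor for monocyte-attracting chemokines, rose in AG_CPI against AG, at 1.89 against 0.52 (adjusted p = 0.043), where 0.0855% of all genes passed. Cxcr3, the receptor for CXCL9 and CXCL10, was 1.26 and 1.98 in NO_AG mice, 1.75 and 1.197 in AG mice, and 0.93 and 1.00 in AG_CPI mice. It did not pass in CD8 T cells as a whole, and in those with another beta segment it was lower in AG_CPI than in AG (log2 difference -1.27, adjusted p = 0.020).

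Other chemokine ligands moved both ways beside Cxcl16 in macrophages. Of 10 tested in AG against NO_AG, 4 rose, among them Cxcl9 (20.6 against 0.82, log2 difference 4.59), Cxcl10 (3.71) and Cxcl2 (1.02), and 4 fell, among them Ccl8 (-4.07), Pf4 (-3.05) and Ccl6 (-3.35). Their median was 0.97 against 0.28 over all genes, of which 28.6% passed. In keratinocyte-like cells 3 of 12 rose (Cxcl9, Ccl8 and Cxcl10) and 0 fell, where 0.58% of all genes passed, with a median of 0.92 against -0.02. Ccl8 and Pf4 are also leading genes of macrophage sub-cluster 9, which held most NO_AG macrophages.

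Interferon and NF-kappaB factors are known to act on chemokine genes. In Langerhans cells 4 of 17 tested rose in AG against NO_AG, among them Ifngr1 (2.48) and Irf8 (2.10), where 4.06% of all genes passed, with a median of 1.06 against -0.11. Without sub-cluster 10, 1 of 17 rose there, Ifngr1 (2.69), where 1.17% passed. Over all dendritic/Langerhans-like cells 4 of 15 rose in AG against NO_AG, where 7.24% passed, and 8 of 15 in AG_CPI against NO_AG, where 28.5% passed. In CD8 T cells 1 of 17 rose in each of these comparisons, Irf8 (1.51 and 1.14), where 1.58% and 3.65% of all genes passed, so the count does not set the list apart. In keratinocyte-like cells, in which Cxcl16 did not pass, 3 of 18 rose, among them Stat2 and Irf7, where 0.58% of all genes passed, with a median of 0.04 against -0.02. In macrophages 1 of 9 rose (Irf7, 2.93) and 1 fell (Jak1, -1.86), a share no larger than the 28.6% of all genes that passed there. Of the proteases known to cut CXCL16 or its relatives, Adam8 rose in Langerhans cells (1.93, adjusted p = 0.014) but did not pass without sub-cluster 10, while Adam10 and Adam17 were not among the genes that passed there.

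Genes most like each member across classes were named by Pearson r of log2 levels over 53 class and mouse means from 14 classes. For Cxcl16 they were Plbd1 (0.96), Ctsh (0.94), Mpeg1 (0.93), Lacc1 (0.92) and Zmynd15 (0.91). For Cxcr6 they included Skap1 (0.92), Lat (0.92), Lck (0.92) and Sh2d2a (0.90). Between Cxcl16 and Cxcr6 r was -0.69. The means share libraries, so these values describe the pattern of cell types. Single cells rarely held both: the share of kept cells with UMIs of both members was 0.31% to 1.70% per mouse.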

How the data were processed

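Single-cell RNA of skin was measured in 6 mice with a 10x Genomics 5' kit, and the submitters' processing notes name Cell Ranger 3.1 and mm10. The authors deposited log10 values, which invert to UMIs per 10000 UMIs of the cell plus 1. All of them fell on whole UMIs (tolerance 0.02), so the unit was read from the values. The members, gene lists and tests were chosen with earlier results of these data known.

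Cells under 200 genes or over 20% mitochondrial UMIs were dropped (51 cells), and 661 cells with the highest Scrublet scores were removed as doublets. Clustering in scanpy 1.11.5 took 30 principal components of 2000 variable genes, 15 neighbours and a Leiden resolution of 1. The naming rule was the third tried and was settled after leading genes had been seen. The type 17 T, ILC2-like and Trdv4 T gates and the comparisons within sub-clusters were added after the clusters had been seen.

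For each class and mouse with at least 10 cells, linear values were averaged over cells, TMM-scaled, and tested as log2(mean + 0.1) with limma 3.58.1 (trend) in R 4.3.3, all groups in 1 fit, Benjamini-Hochberg over all genes tested, threshold 0.05. Fold changes are on that scale and understate low genes. Count models had been planned, and limma was used because the deposited unit is not counts. Genes needed 10 UMIs in the class, a mean of 0.1 in 2 libraries and 5 expected UMIs in the smallest library. The last floor, with TMM over genes with 10 UMIs in every library, was adopted after results under a lighter filter had been seen, because tests on simulated data gave too many false calls in macrophages. Genes named beside the members are those with the 3 smallest p-values in each direction of a list, with Cxcl9, Cxcl10 and Cxcr3 fixed. P-values rest on 2 mice per group and a spread shared across genes. The labels name no batch, and the shared replicate numbers did not pair the mice. Some genes are not reported here.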

Additional observations from a re-analysis of the deposited data

Results flagged for a closer look

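The change of Cxcl16 with antigen differed between keratinocyte-like and myeloid cells in 3 of 4 tests of the difference itself. Keratinocyte-like minus monocyte/macrophage-like changes differed by -2.47 for AG against NO_AG and by -3.23 for AG_CPI against NO_AG. Keratinocyte-like minus dendritic/Langerhans-like changes differed by -2.95 for AG_CPI against NO_AG. The fourth, keratinocyte-like minus dendritic/Langerhans-like for AG against NO_AG, did not pass (-1.85, adjusted p = 0.145). The same NO_AG mice enter all 4, and NO_AG macrophages numbered 19 and 15 cells, of which 17 and 13 lay in sub-cluster 9. The myeloid classes held different cells in each group, so a change of level and a change of cells cannot be told apart in these differences.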

How the results depend on the processing

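Over 46 results and 627 alternatives, 605 kept direction and call, 1 lost the call, 5 gained one and 16 turned direction. The cause was not tested except where fewer mice entered. Where a mouse was left out, the lone mouse of its group was taken to vary like the others. The Cxcl16 rises in macrophages kept their call in every alternative, at 2.60 to 3.17 (AG) and 2.54 to 3.097 (AG_CPI) with a mouse left out. Those alternatives took the class as a whole and did not hold the sub-cluster fixed. Macrophages of sub-cluster 9, tested only under the lighter filter, gave -0.19 for AG against NO_AG (limma adjusted p = 0.99), where 0.0493% of 2027 genes passed. Cxcr6 in CD8 T cells of AG against NO_AG was -0.0728 with the deposited scaling alone, -0.0221 with a lighter filter and -0.22 to 0.26 with a mouse left out. For AG_CPI it was 0.30 to 0.78 against AG and 0.35 to 0.80 against NO_AG. Cxcl16 in macrophages of AG_CPI against AG turned to 0.0151 thinned, 0.0053 at Leiden resolution 0.5 and 0.0068 with stricter cell filters, and to 0.0363 thinned in C1q macrophages (-0.12 to -0.02 with a mouse left out of all macrophages). In keratinocyte-like cells leaving out a mouse gave 0.15 to 0.64 (AG against NO_AG), -1.08 to -0.58 (AG_CPI against AG) and -0.61 to -0.25 (AG_CPI against NO_AG).

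Among single results, CD8 T cells of sub-cluster 0 (AG_CPI against AG) turned to 0.0267 thinned and spanned -0.54 to 0.27 with a mouse left out, and the Pdcd1 difference turned to 0.21 thinned. With a mouse left out, Cxcr6 spanned -0.53 to 1.02 in CD4 T cells (AG_CPI against NO_AG; -0.01 without AG_CPI 1), -0.0702 to 0.43 in type 17 T cells and -0.88 to 0.22 in ILC2-like cells (0.09 without AG 2). Calls changed without AG 2 for dendritic/Langerhans-like cells (2.05) and the basal layer (0.77), without AG 1 for Trbv13-3 cells (0.77) and sub-cluster 7 (1.67), and without AG_CPI 2 for the upper hair follicle (-1.56). Each of these fits left a lone mouse in its group, so the call measures no spread within that group.

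Same-numbered mice correlated at -0.28 to 0.19 in their deviations, so the numbers do not pair them. With the replicate number as a block, 36 of 37 results kept their call, and Cxcr6 in keratinocyte-like cells of AG_CPI against NO_AG gained one (1.80, adjusted p = 0.030). Under the lighter filter, which tests more genes, Cxcr6 in dendritic/Langerhans-like cells of AG_CPI against NO_AG passed (2.34, adjusted p = 0.0148); too few UMIs left it untested otherwise. That filter and the alternatives by sub-cluster or macrophage RNA were chosen after seeing the data.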
